A study of Caenorhabditis elegans with 2 samples.

Results

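The regions described here are autosomal divergent promoters of protein-coding genes that carried a peak of TBP-1, the TATA-binding protein of the nematode Caenorhabditis elegans. A peak was counted when the annotated 5' ends of protein-coding genes lay within 500 bp of its summit on both strands, with no tRNA, snoRNA, snRNA or rRNA 5' end in the same reach. Of 3862 reproducible peaks, 3223 were autosomal and 352 met this rule. The peaks came from chromatin immunoprecipitation and sequencing with an anti-GFP antibody on whole worms of strain OP746. Those animals carried the unc-119(tm4063) allele and the transgene wgIs746, in which tbp-1 has a TY1, EGFP and 3xFLAG tag and which also holds unc-119(+). They were mixed-sex young adults aged 65 h, synchronised by starvation of L1 larvae after bleaching, in 1 group of 2 biological replicates. There was no second condition, so the values below describe positions and ranks within these libraries. The tagged protein was immunoprecipitated from all tissues together, so the cells in which a promoter was occupied cannot be told apart.

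TBP binds the minor groove of DNA and is a subunit of the general transcription factor TFIID, which helps place RNA polymerase II at the start of a gene. Divergent genes lie head to head and are transcribed away from each other, so that a single stretch of DNA holds the promoters of both. In C. elegans many transcripts are trans-spliced to a short leader RNA, and the annotated 5' end of such a gene then lies downstream of the place where transcription starts.

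A few of these promoters, 6 in all, are printed to show the DNA under the summits. They comprise a pair from the strongest peaks that holds a ribosomal protein gene, a strong pair without one, a pair of splicing factor genes, 2 histone pairs and a pair of small heat shock genes. Each run is the plus strand of the RefSeq genome, build WBcel235, which is ce11. All 6 windows lie between the 2 annotated ends. For rpl-20, drr-2, rsp-2 and his-61 the run is 201 bp with the summit at base 101. For his-60 and hsp-16.2 it is the whole interval between the ends, 256 and 220 bp long, with the summit at base 122 and base 212. Capitals mark, on either strand, TATAAA (the TATA box letters), GGGCGG (GC box), GAGAGA (GA repeat) and TTCTAGAA (letters of the heat shock element), so that TTTATA and CCGCCC are matches read on the minus strand.
rpl-20/Y17G9B.5, chrIV:4749970-4750170: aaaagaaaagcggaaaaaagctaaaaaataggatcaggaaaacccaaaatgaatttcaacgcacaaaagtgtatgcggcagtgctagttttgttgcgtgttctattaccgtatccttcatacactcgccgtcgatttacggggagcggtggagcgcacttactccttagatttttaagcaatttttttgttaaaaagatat
drr-2/set-16, chrIII:13643648-13643848: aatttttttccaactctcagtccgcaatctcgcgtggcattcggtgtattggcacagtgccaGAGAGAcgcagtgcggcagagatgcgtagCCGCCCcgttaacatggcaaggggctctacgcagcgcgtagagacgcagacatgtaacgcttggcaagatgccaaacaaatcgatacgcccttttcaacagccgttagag
rsp-2/rsp-1, chrII:11453093-11453293: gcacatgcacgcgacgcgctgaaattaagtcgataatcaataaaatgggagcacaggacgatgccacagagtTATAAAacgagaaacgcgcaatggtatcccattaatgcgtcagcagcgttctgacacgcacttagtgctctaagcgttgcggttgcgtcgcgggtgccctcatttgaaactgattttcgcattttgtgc
his-61/his-62, chrIV:7486262-7486462: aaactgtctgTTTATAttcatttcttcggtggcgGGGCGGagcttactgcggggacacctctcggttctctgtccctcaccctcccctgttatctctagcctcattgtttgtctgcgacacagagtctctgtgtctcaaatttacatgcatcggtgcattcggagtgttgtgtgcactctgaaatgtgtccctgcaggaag
his-60/his-59, chrIV:7487993-7488248: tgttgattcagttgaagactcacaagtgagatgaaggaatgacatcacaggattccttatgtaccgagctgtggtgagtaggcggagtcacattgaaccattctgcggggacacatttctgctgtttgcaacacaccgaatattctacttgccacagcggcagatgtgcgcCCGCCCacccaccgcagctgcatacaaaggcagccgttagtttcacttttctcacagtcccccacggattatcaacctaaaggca
hsp-16.2/hsp-16.41, chrV:1804958-1805177: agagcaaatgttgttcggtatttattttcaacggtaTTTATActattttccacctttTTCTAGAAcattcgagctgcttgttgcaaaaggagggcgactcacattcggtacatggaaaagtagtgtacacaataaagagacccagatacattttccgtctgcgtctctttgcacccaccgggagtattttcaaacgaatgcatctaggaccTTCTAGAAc

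The first run, at the strongest divergent promoter peak, holds none of the 4 motifs. A TATAAA that reads toward Y17G9B.5, 38 bp upstream of its annotated end, lies outside this run. In drr-2/set-16 a GGGCGG started 4 bp from the summit and a GAGAGA 38 bp from it. In rsp-2/rsp-1 a TATAAA lay 28 bp from the summit but 197 bp from the nearer annotated end. Another 2 runs carry a TATAAA that reads toward a gene at a short distance upstream of its annotated end, 60 bp for his-61 and 42 bp for hsp-16.2. The summit was not at that TATAAA in either run: it lay 85 bp from it in his-61/his-62 and 170 bp from it in hsp-16.2/hsp-16.41. The hsp-16 interval also holds TTCTAGAA at base 58 and again at base 212, where the summit lies. The replicates placed this summit apart from each other, as given below, so its place in the interval is loose. TTCTAGAA holds the inverted repeat to which heat shock factors bind, and it was added to the search after these sequences had been seen. A match of letters is a description of the sequence and not evidence of a bound site.

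Divergent promoters made up 24.8% of the 1417 autosomal peaks at protein-coding 5' ends (exact 95% interval 22.6 to 27.2%, Clopper-Pearson). The other 1065 such peaks had protein-coding ends on 1 strand only and are called one-direction promoters below. All intervals given here cover counting error only, since peaks and genes are not replicates. The share was 27.4% on chromosome I, 21.3% on II, 26.9% on III, 23.1% on IV and 25.1% on V, and the 5 intervals overlap. On X, which holds no members by the rule, 6 of 143 such peaks (4.2%, interval 1.56 to 8.91%) had the same layout. Of 17047 autosomal protein-coding genes away from small RNA ends, 20.7% had a head-to-head protein-coding end within 1000 bp. That is a share of genes and not of peaks. The share of X genes with such an end was not counted, so gene layout on X was not taken into account. In 345 of the 352 peaks the nearest ends were head to head, the minus-strand end to the left of the plus-strand end. In the other 7 the annotated transcripts overlapped at their 5' ends. They include pus-1/ctps-1, a pseudouridine synthase and a CTP synthase gene, and rpb-7/Y54E10BR.2, where rpb-7 encodes an RNA polymerase II subunit. These examples were chosen after their values were seen.

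The 352 peaks belong to 351 different gene pairs with 702 different nearest genes. The exception is cids-2/phip-1 on chromosome I, with peaks at ranks 2429 and 3177, where rank 1 is the highest deposited signal value of the reproducible list. In the window around its second summit 83.6% of the 50-base words recur elsewhere in the genome. Both of its peaks overlap the same peak of replicate 1, at rank 2502. Recurring 50-base words were rare over all members, and 12 of the 352 windows held any. The second cids-2/phip-1 window was the only 1 in which they made up 50% or more. At 8 peaks more than 1 gene on a strand had an end in reach. At 55 peaks an end of another kind was also in reach, of which 43 had an ncRNA, 9 a piRNA and 3 a miRNA.

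The annotated ends of a pair were a median of 395.5 bp apart (interquartile range 265.8 to 542.2 bp). The rule caps this distance at 1000 bp, because both ends must lie within 500 bp of 1 summit. The closest head-to-head pairs were F32D8.14/F32D8.5 at 12 bp, F25H9.6/F25H9.7 at 15 bp and Y59E9AL.36/nbet-1 at 20 bp. F25H9.7 encodes an assembly factor of succinate dehydrogenase, and nbet-1 a BET1 homolog, a SNARE of vesicle traffic. At all 3 the summit lay outside the short interval, by 5, 9 and 80 bp. The widest pairs were sqv-3/vha-1 at 900 bp, col-38/rpl-5 at 839 bp and rpl-15/K11H12.8 at 814 bp. There sqv-3 encodes a galactosyltransferase, vha-1 a subunit of the proton-pumping V-ATPase, and col-38 a cuticle collagen.

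The summit lay between the 2 annotated ends at 320 of 352 divergent promoters (90.9%, interval 87.4 to 93.7%). The summits called in each replicate alone gave 319 of 351 (90.9%) in replicate 1 and 321 of 352 (91.2%) in replicate 2. The nearer end was a median of 139 bp from the summit (interquartile range 59.75 to 197.2 bp) and the farther end 272.5 bp (192 to 366.8 bp). At one-direction promoters the nearest end was a median of 200 bp from the summit (100 to 318 bp). A divergent peak has an end on each strand from which the nearer is taken, so the fair comparison is by signed distance to an end. Taken over both ends, divergent summits lay a median of 192 bp upstream (interquartile range 106 to 289 bp upstream). At one-direction promoters the summit lay a median of 164 bp upstream of the end, and 81.1% were upstream at all.

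**Figure D1:**
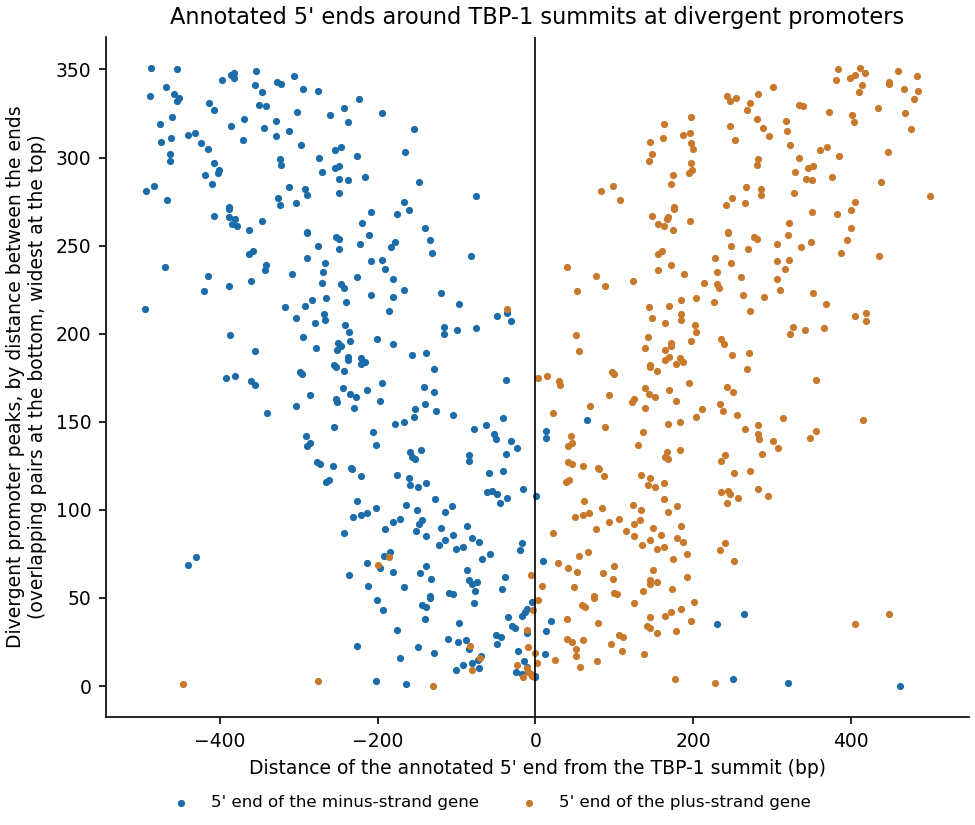
Annotated 5' ends of the minus-strand gene (blue) and the plus-strand gene (orange) around the TBP-1 summit at 0, in bp, with 1 row for each of the 352 divergent promoter peaks, sorted by the distance between the ends. Apart from the overlapping and the shortest pairs at the bottom, the blue ends lie mostly left and the orange ends mostly right of the summit, and 320 summits lie between both.

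How often the summit fell between the ends followed the length of the interval. It did so at 22 of 38 pairs whose ends were up to 200 bp apart (57.9%), 131 of 139 at 200 to 400 bp (94.2%), 110 of 111 at 400 to 600 bp (99.1%) and all 57 at 600 to 1000 bp. Replicate 1 gave 22, 130, 110 and 57 of these peaks, and replicate 2 gave 25, 129, 110 and 57. Longer intervals leave more room for a summit, and for the widest pairs the rule itself holds the summit near the middle. Within the 345 head-to-head pairs the summit was a median of 63 bp from the midpoint (interquartile range 29.5 to 107.5 bp). When the interval is divided into 3 equal segments, the summit lay in the central one at 169 of 345 pairs (49%, interval 43.6 to 54.4%). In replicate 1 it was there at 166 of 344 pairs and in replicate 2 at 175 of 345.

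A summit at the midpoint was not the usual case. The distances to the 2 ends differed by a median of 126 bp (interquartile range 59 to 215 bp). The summits of the replicates themselves differed by a median of 17 bp (6 to 33 bp) at divergent promoters, against 21 bp (8 to 43 bp) at one-direction promoters. At 279 of 344 pairs with summits in both replicates (81.1%) the summit was farther from the midpoint than the summits of the replicates were from each other. Both replicates placed the summit on the same side of the midpoint at 308 of 344 pairs (89.5%). The summit was nearer to the minus-strand end at 155 of 345 pairs (44.9%, interval 39.6 to 50.3%), so neither strand was favoured beyond the interval. Ends with an annotated leader in front of the coding sequence lay a median of 192 bp downstream of the summit (627 ends), and ends without one 187 bp (77 ends).

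The deposited signal value ranked divergent promoters in the middle of the reproducible list, above one-direction promoters. Their median percentile was 48.6 (interquartile range 28.48 to 65.19), against 38.15 (19.61 to 58.2) for one-direction promoters, where 100 is the strongest peak of the list. The medians were 47.86 against 37.28 by the signal of replicate 1, and 45.68 against 38.6 by that of replicate 2. The reproducible list ranks peaks by the pooled signal, so the replicate ranks are not independent of it. Among the 1931 strongest reproducible peaks were 170 of 352 divergent promoters (48.3%, interval 43 to 53.7%) and 378 of 1065 one-direction promoters (35.5%, interval 32.6 to 38.5%). In replicate 1 the counts were 164 of 351 (46.7%, interval 41.4 to 52.1%) against 373 of 1062 (35.1%, interval 32.2 to 38.1%). In replicate 2 they were 152 of 352 (43.2%, interval 37.9 to 48.5%) against 383 of 1057 (36.2%, interval 33.3 to 39.2%). The intervals of replicate 2 overlap. The 2 kinds of promoter overlap over most of the range.

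**Figure D2:**
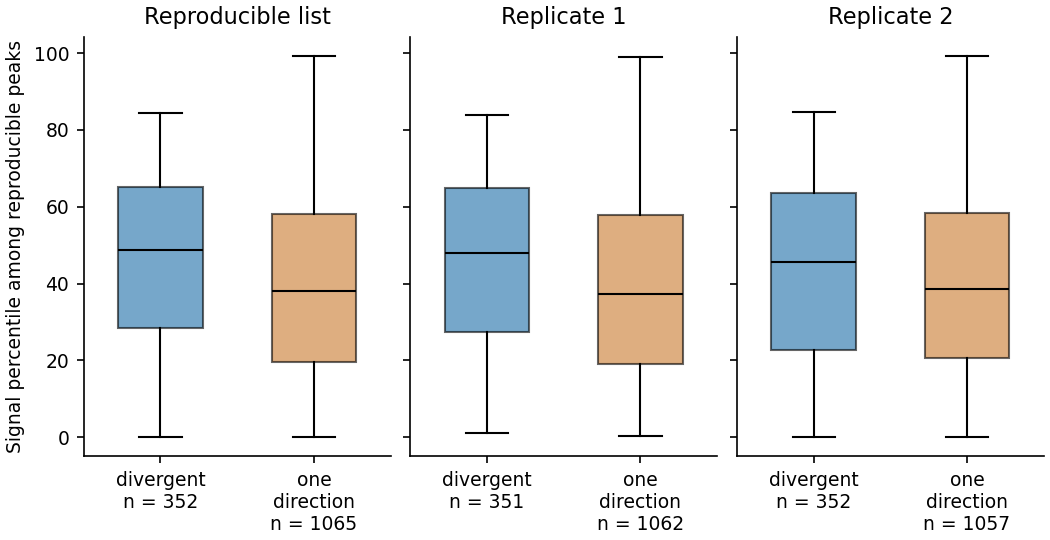
Percentile of the deposited signal value among reproducible peaks (100 is the strongest) for divergent and one-direction promoters, in the reproducible list and by the signal of each replicate. The box is the interquartile range, the line the median and the whiskers the lowest and highest peak, and the divergent medians of 48.6, 47.86 and 45.68 lie above the one-direction medians of 38.15, 37.28 and 38.6.

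The very top of the list held few protein-coding promoters of either kind. Divergent ranks ran from 604 to 3862, and the 386 strongest reproducible peaks held 0 divergent promoters, an upper limit of 1.04% by the exact interval, against 8 of 1065 one-direction promoters (0.751%, interval 0.325 to 1.47%), a difference within counting error. Ranks 387 to 772 held 7 divergent promoters (1.99%) and 27 one-direction promoters (2.54%). Ranks 773 to 1159 held 16.5% of divergent and 9.2% of one-direction promoters. Ranks 1160 to 1545 held 13.1% against 10.6%, and ranks 1546 to 1931 held 16.8% against 12.4%. Pairs with longer intervals had higher median signal: the median percentile was 45.5 at up to 200 bp, 47.5 at 200 to 400 bp, 50.3 at 400 to 600 bp and 56.9 at 600 to 1000 bp. These groups held 38, 139, 111 and 57 peaks. The steps are small against the interquartile range of all divergent promoters, 28.48 to 65.19, and were not tested.

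Divergent promoters were among the strongest peaks of both replicates at least as often as one-direction promoters. Signal also ranked higher at divergent promoters, and the 2 kinds were not compared at like rank. Of the 352, 274 (77.8%, interval 73.1 to 82.1%) were also among the 3862 strongest peaks of both replicates, against 741 of 1065 one-direction promoters (69.6%, interval 66.7 to 72.3%). A further 69 were among the strongest of 1 replicate, and 9 of neither. In replicate 1 no matched member ranked beyond 7724, whereas 19 did in replicate 2. The widest gap was at aps-3/rpl-17, which ranked 2680 in replicate 1 and 27834 in replicate 2. C29E4.13/npp-15 had no overlapping peak in replicate 1, and npp-15 encodes a nuclear pore protein. These 2 pairs were chosen after their values were seen.

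Cytosolic ribosomal protein genes were frequent at the strong end. They were in 27 of the 352 pairs, and in 6 of the 12 strongest. Strongest of all was rpl-20/Y17G9B.5 at rank 604, which ranked 615 in replicate 1 and 592 in replicate 2. It joins the gene of the large-subunit protein eL20 to a homolog of ECSIT, a mitochondrial signalling protein. Close behind was rpl-15/K11H12.8 at rank 607 (620 and 595 in the replicates), whose ends are 814 bp apart with the summit 354 bp from rpl-15 and 460 bp from K11H12.8. The others were rps-19/hsr-9 at 712 (736 and 692), rpl-12/lin-54 at 764 (783 and 754), rps-15/F36A2.9 at 819 (856 and 811) and rps-20/ekl-4 at 821 (844 and 832). In all 6 the ranks in both replicates lay between 592 and 856. lin-54 encodes a DNA-binding subunit of the DRM complex, a repressor of cell cycle and germline genes.

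The partners of ribosomal protein genes were mostly unrelated genes, and the summit was more often nearer to them. Of 25 pairs with a partner outside the list, 18 had the summit nearer to the partner's end. Over these 25 pairs the summit was a median of 304 bp upstream of the ribosomal protein gene and 244 bp upstream of its partner. In rps-19/hsr-9 the summit was 280 bp from rps-19 and 165 bp from hsr-9, and in rps-20/ekl-4 it was 243 bp from rps-20 and 154 bp from ekl-4. The reverse held at rpl-12/lin-54, with the summit 37 bp from rpl-12 and 356 bp from lin-54. In 2 further pairs both genes encode ribosomal proteins: rps-14/rpl-36 at rank 1401 and rpl-39/rps-30 at rank 1651.

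**Figure D3:**
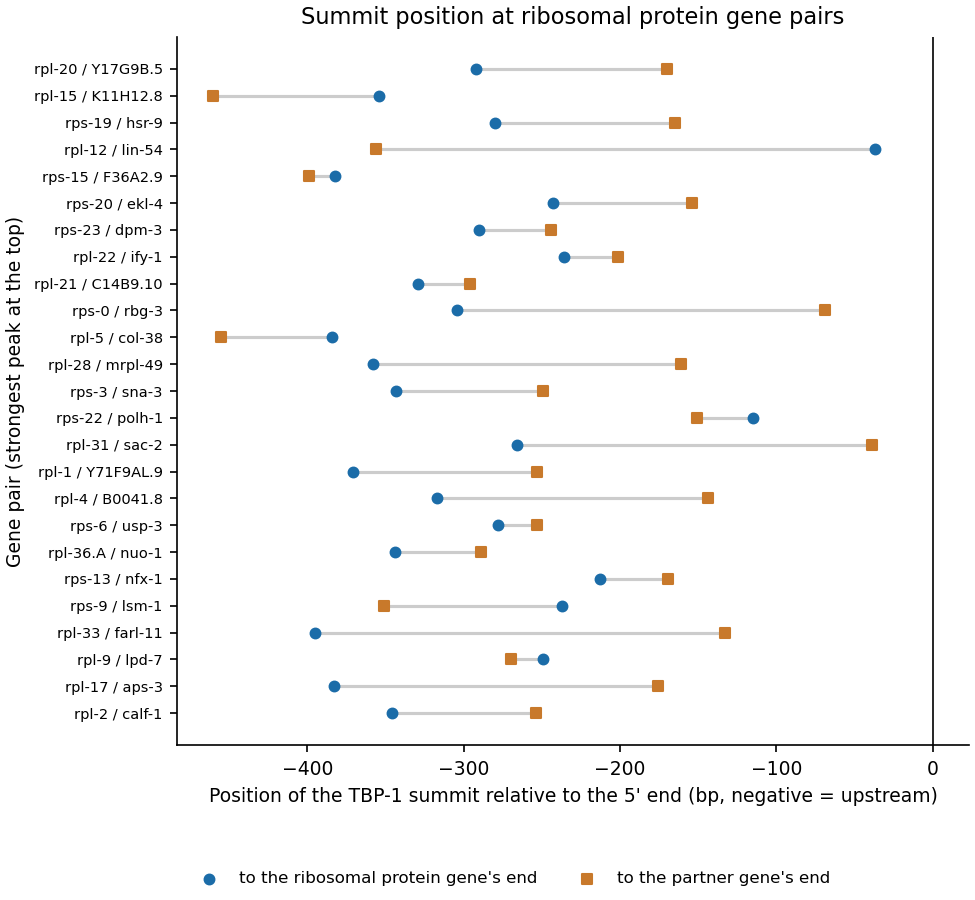
Position of the TBP-1 summit relative to the annotated 5' end of the ribosomal protein gene (blue circles) and of its partner (orange squares), in bp with negative values upstream, at the 25 pairs with 1 ribosomal protein gene, strongest peak at the top. The partner's square lies nearer to 0 in 18 of the 25 pairs, and in all 25 the summit is upstream of both ends.

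For chaperone genes the numbers are smaller. There were 17 nearest genes of the list of heat shock proteins, chaperonins and DnaJ proteins, and at 12 of the 15 with a partner outside the list the summit was nearer to the partner. cct-8/Y55F3AR.2, with a subunit of the CCT chaperonin that folds actin and tubulin, ranked 759 (762 and 761 in the replicates), and its summit was 424 bp from cct-8 and 197 bp from the partner. hsp-110/rpn-3 ranked 780 (779 and 804) and joins an HSP110 chaperone gene to a subunit of the proteasome lid. C47E8.4/hsp-90 ranked 891 (903 and 857). For other lists the summit was nearer to the partner at 2 of 9 pairs (proteasome), 3 of 10 (mitochondrial ribosomal proteins), 2 of 8 (RNA polymerase II, general factors and Mediator) and 5 of 10 (splicing). The proteasome pairs include rpn-9/T06D8.9 at rank 1217 (1193 and 1443 in the replicates) and pbs-1/K08D12.3 at 2151 (2295 and 2410). None of these counts was tested, because the pairs were grouped with their values known.

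Pairs made of related genes were few. In 11 pairs both nearest genes are on the same list, and in 9 pairs they share the letters of their symbol. In emc-6/mrps-24, at rank 2932, a second gene on the minus strand in reach, mrpl-1, is on the list of mrps-24. Histone genes, which C. elegans keeps in small clusters of core histones, gave 5 of these 9. his-67/his-68, an H4 and an H2A gene, ranked 698 (718 in replicate 1 and 678 in replicate 2). his-61/his-62, an H2A and an H2B gene, ranked 1076 (1041 and 1166), and his-60/his-59, an H4 and an H3 gene, ranked 1238 (1210 and 1153). The remaining 2 repeated less well: his-63/his-64 ranked 1950 (3450 in replicate 1 and 1331 in replicate 2) and his-35/his-41 ranked 2779 (2576 and 3793). No 50-base word in any of the 5 histone windows recurs elsewhere in the genome.

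Outside the histones, the related pairs came from splicing, heat shock and other families. rsp-2/rsp-1, both genes of arginine/serine-rich splicing factors, ranked 1027 (1066 in replicate 1 and 985 in replicate 2), with the summit 238 bp from rsp-2 and 169 bp from rsp-1. snr-3/rsp-5, an Sm protein gene and another arginine/serine-rich factor, ranked 1872 (1808 and 1943). Other splicing genes had unrelated partners, as in snx-13/snr-1 at rank 1080 and clu-1/prp-40 at rank 1575. hsp-16.2/hsp-16.41, small heat shock genes that are known to be induced together by heat, ranked 1966 (2160 and 1638). Its summit was 212 bp from hsp-16.2 and 9 bp from hsp-16.41, and the summits of the replicates were 78 bp apart, so its place in this interval is loose. F44E5.4/F44E5.5, both HSP70 genes by their RefSeq product name, ranked 966 (993 and 999) and was named after its values were seen. tag-266/tag-267 ranked 2065 and fbxa-76/fbxa-77, a pair of F-box genes, 3602. A symbol beginning with tag states no shared family, and the RefSeq products of tag-266 and tag-267 differ.

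Further pairs of the 12 strongest were drr-2/set-16 at rank 673 (691 in replicate 1 and 645 in replicate 2), cng-1/F14H8.8 at 824 (832 and 843) and sec-61.B/trap-3 at 828 (822 and 883). drr-2 encodes an RNA-binding protein and set-16 a histone methyltransferase of the MLL type. Both genes of sec-61.B/trap-3 serve the same step: Sec61 beta is part of the channel that carries new proteins into the endoplasmic reticulum, and the trap-3 product is a subunit of the translocon-associated complex. Its ends are 770 bp apart, with the summit 468 bp from sec-61.B and 302 bp from trap-3.

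Genes of translation and of energy metabolism were found over a wide range of ranks. eef-1A.1/rfc-4, with the gene of elongation factor 1-alpha, ranked 925 (965 and 874 in the replicates). ctf-4/eef-1G ranked 954 (960 and 1030) and clsp-1/eef-2 ranked 1000 (1004 and 1067). In these 2 the summit was nearer to the elongation factor gene, 40 bp from eef-1G and 22 bp from eef-2, whereas at eef-1A.1/rfc-4 it was 378 bp from eef-1A.1 and 163 bp from rfc-4. Over the list it was nearer to the partner at 3 of 7 pairs. Y71H2AM.20/cox-6B, with a cytochrome oxidase subunit gene, ranked 855 (868 and 872) and mcrs-1/atp-1, with the ATP synthase alpha subunit gene, ranked 901 (922 and 916). At mcrs-1/atp-1 the summit was 193 bp from mcrs-1 and 3 bp inside the atp-1 transcript. atp-3/F27C1.2, with another ATP synthase gene, ranked 1144 (1161 and 1064). Of the mitochondrial ribosomal protein genes, mrps-7 beside Y57G11C.3 ranked 1042 (1064 and 1051), mrpl-49 beside rpl-28 ranked 1586 (1981 and 1702) and mrps-17 beside txdc-9 ranked 1776 (2236 and 1944). ears-2/uncp-18, with the gene of a mitochondrial glutamyl-tRNA synthetase, ranked 953 (1027 and 946), and aars-1/rga-1 ranked 2647 (2064 and 6364), so that its signal in replicate 2 was low.

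Genes of the transcription machinery and of chromatin were members too. ift-43/mdt-26 ranked 867 (874 and 1016 in the replicates) with the summit 3 bp from mdt-26, and clpp-1/mdt-22 ranked 1030 (1078 and 1032). Both mdt genes encode subunits of Mediator, the complex that links activators to RNA polymerase II. wapl-1/htz-1, with the gene of the variant histone H2A.Z, ranked 893 (887 and 971). rpb-12/aly-2, with a subunit gene of all 3 nuclear RNA polymerases, ranked 1582 (1474 and 2310). tbp-1 itself had a one-direction peak at rank 1585 and was no member. No reproducible summit lay within 500 bp of an end of unc-119 or of ama-1, which encodes the catalytic RNA polymerase II subunit. Both tbp-1 and unc-119 are also on the transgene.

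Germline, cell division and trafficking genes were spread through the list. puf-3/afmd-2, with a PUF-family RNA-binding protein gene, ranked 1115 (1110 and 1196 in the replicates), vha-18/pos-1 ranked 1394 (1492 and 1309) and rec-8/mex-5 ranked 1768 (2089 and 2036). pos-1 and mex-5 encode zinc-finger RNA-binding proteins of the early embryo, and rec-8 encodes the meiotic cohesin subunit. T10B5.3/knl-3, with a kinetochore gene, ranked 1014 (966 and 1251), and mei-2/syp-6, with genes of the meiotic spindle and the synaptonemal complex, ranked 1228 (1295 and 1269). mcm-3/C25D7.15, with the gene of a replicative helicase subunit, ranked 1694 (2480 in replicate 1 and 1462 in replicate 2). rab-18/kbp-4 joins a Rab GTPase gene to a kinetochore gene and ranked 969 (1028 and 943). Its summit was 12 bp inside the rab-18 transcript and 138 bp from kbp-4.

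Families of chemoreceptors, nuclear hormone receptors and cuticle collagens supplied members as well, each paired with a gene outside its own list. Of 17047 autosomal protein-coding genes away from small RNA ends, 692 (4.06%) were nearest to a divergent peak. Among 1270 chemoreceptor genes, 3 were nearest to a divergent peak, including sri-5 beside rsr-1 at rank 1050 and srh-2 beside icl-1 at 3470. icl-1 encodes the bifunctional enzyme of the glyoxylate cycle. Nuclear hormone receptors supplied nhr-47 beside dnj-19 at rank 996 and nhr-68 beside H12C20.7 at 1119, out of 243 genes. Among 140 cuticle collagen genes 4 were nearest genes, including col-38 beside rpl-5 at rank 1378, bli-6 beside hrpf-2 at 1889 and col-71 beside Y49F6B.2 at 1908. In all 4 collagen pairs the summit was nearer to the partner. The lectin genes clec-88 beside ani-2 (rank 2649) and clec-87 beside rsa-1 (rank 3327) and the homeobox gene ceh-38 beside malt-1 (rank 1295) were the other members from such families, apart from the F-box pair above. With a peak between both ends, the occupied promoter of such a pair cannot be assigned to 1 of its genes.

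These counts can be read against all autosomal protein-coding genes whose ends lie at least 500 bp from small RNA ends. Of 17047 such genes, 692 (4.06%) were nearest to a divergent promoter peak, and 1708 (10%) had any reproducible summit within 500 bp of an end of their own. The share nearest to a divergent peak was 24 of 66 cytosolic ribosomal protein genes (36.4%), 14 of 39 splicing genes (35.9%), 17 of 60 chaperone genes (28.3%), 9 of 33 proteasome genes (27.3%) and 11 of 46 respiratory chain genes (23.9%). It was 3 of 1270 chemoreceptor genes (0.236%), 2 of 243 nuclear hormone receptor genes (0.823%) and 2 of 234 C-type lectin genes (0.855%). Between these lay 7 of 36 translation factor genes (19.4%), 15 of 83 cell division genes (18.1%), 11 of 75 histone genes (14.7%), 10 of 70 mitochondrial ribosomal protein genes (14.3%) and 8 of 57 RNA polymerase II genes (14%). Vesicle transport genes gave 13 of 95 (13.7%), germline RNA regulators 6 of 44 (13.6%) and aminoacyl-tRNA synthetases 2 of 31 (6.45%). Cuticle collagens (4 of 140, 2.86%), homeobox ceh genes (1 of 44, 2.27%) and F-box A genes (2 of 156, 1.28%) were also below 4.06%. These counts are small and the difference from 4.06% was not tested. None of the 11 genes listed for RNA polymerases I and III was at such a peak. Only 1 of these genes had a head-to-head neighbour. The shared subunit gene rpb-12, named above as a member, is not on that list. The 1 vitellogenin gene among the genes counted was not at such a peak either. Of the 29 ribosomal protein genes nearest to a divergent peak, those not counted here have an end within 500 bp of a small RNA end. Lists also differed in how many genes have a head-to-head neighbour within 1000 bp. It was 56.1% of the ribosomal protein genes, 66.7% of the proteasome genes and 10.2% of the chemoreceptor genes. Histone genes had the highest such share, 81.3%, with 14.7% nearest to a divergent peak. For mitochondrial ribosomal protein genes it was 40% and for aminoacyl-tRNA synthetase genes 38.7%. The part of this in the shares above was not tested.

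Whether head-to-head genes were occupied more often was therefore set against genes without such a neighbour, with the same reach of 500 bp from an end of the gene's own. Of 3527 genes with a head-to-head protein-coding end within 1000 bp, 821 were occupied (23.3%, interval 21.9 to 24.7%), against 887 of 13520 genes without one (6.56%, interval 6.15 to 6.99%). The strongest 3862 peaks of replicate 1 gave 23.1% against 6.44%, and those of replicate 2 gave 21% against 6.32%. Both genes of a pair can count the same peak, so the genes are not independent and the intervals are too narrow. A peak at the partner's promoter can also fall within reach of the gene counted.

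The share differed with the spacing. The reach of 500 bp takes in a peak at the partner's promoter more readily at short spacings than at wide ones. The part of this in the shares by spacing was not tested. Of genes with a head-to-head end up to 200 bp away 17.2% were occupied, then 31% at 200 to 400 bp, 28.7% at 400 to 600 bp, 21.8% at 600 to 800 bp and 9.72% at 800 to 1000 bp. Beyond that it was 10.2% at 1000 to 2000 bp and 7.37% at 2000 to 5000 bp. Replicate 1 gave 31.8% at 200 to 400 bp and 28.6% at 400 to 600 bp, and replicate 2 gave 27.7% and 26.4%. The intervals of these 2 distances overlap in the reproducible list and in both replicates. At 800 to 1000 bp the share was within the interval of that at 1000 to 2000 bp.

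**Figure D4:**
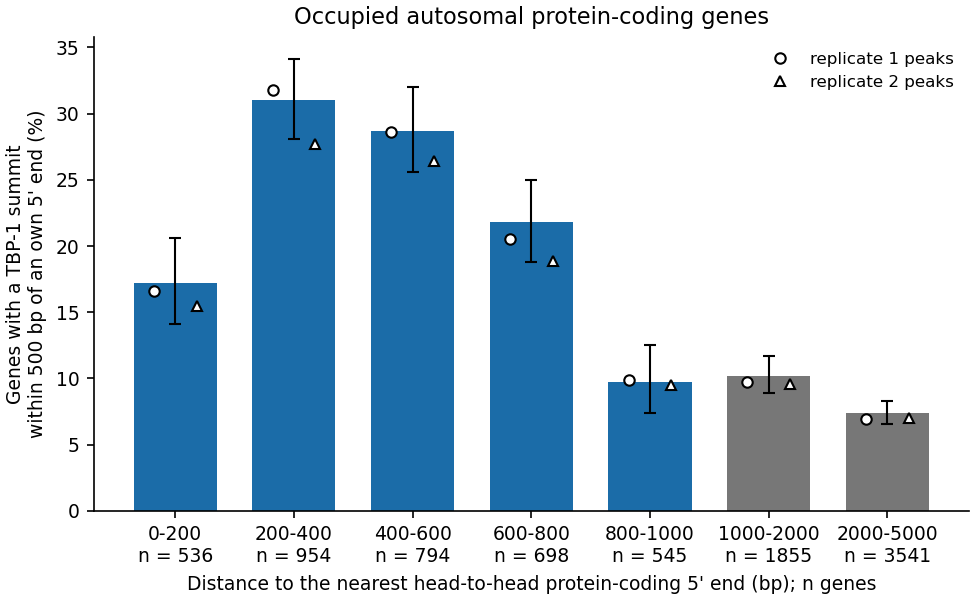
Percentage of autosomal protein-coding genes with a reproducible TBP-1 summit within 500 bp of an end of their own, by distance to the nearest head-to-head protein-coding end. Bars are the reproducible list with exact 95% intervals, blue within 1000 bp and grey beyond, and circles and triangles are the strongest peaks of each replicate, with shares of 31% at 200 to 400 bp and 28.7% at 400 to 600 bp, whose intervals overlap.

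Within the gene lists the same split was made where a list had at least 10 genes of each kind. The occupied share was higher for head-to-head genes in 17 of 18 lists, although the 2 intervals were apart in 2 of them. In those lists it was 10 of 16 against 5 of 41 for RNA polymerase II, general factor and Mediator genes (62.5% against 12.2%) and 18 of 30 against 5 of 30 for chaperone genes (60% against 16.7%). Splicing genes gave 15 of 25 against 2 of 14 (60% against 14.3%), with intervals that overlap. Ribosomal protein genes were the exception, since 29 of 37 head-to-head genes (78.4%) and 25 of 29 others (86.2%) were occupied. Germline RNA regulators hardly differed, with 6 of 14 (42.9%) against 12 of 30 (40%). Histone genes were occupied in 13 of 61 head-to-head cases (21.3%) and 2 of 14 others (14.3%), so most head-to-head histone genes had no reproducible peak. Recurring 50-base words were searched for at members only, and not around unoccupied histone genes.

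The DNA around the summits was compared by the letters it holds within 100 bp to each side, on both strands. Such windows of 201 bp contained GGGCGG at 14.2% of divergent summits (interval 10.7 to 18.3%), 8.54% of one-direction summits and 2.13% of windows 1000 bp to each side of divergent summits. At the midpoints of 1295 head-to-head pairs in which neither gene was occupied the share was 4.4%. At the midpoints of the divergent members it was 11.6% (interval 8.49 to 15.5%), which overlaps the interval at their summits. GGGCGG, the GC box letters, lay a median of 35 bp from the summit over 53 matches at divergent promoters, and 34 of them were within 50 bp. Matches were sought only within 100 bp of the summit, which caps this distance. GAGAGA was found at 21.9% of divergent summits and 27.7% of one-direction summits, against 11.5% of the windows 1000 bp away and 11.9% of midpoints of unoccupied pairs.

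The TATA box letters did not follow the summits. TATAAA was in 15.6% of divergent windows (interval 12 to 19.8%), 19.4% of one-direction windows and 15.9% of the windows 1000 bp away. It was in 29.7% of windows at the midpoints of unoccupied pairs (interval 27.2 to 32.2%) and in 20.7% at the midpoints of the divergent members. Those windows also differ in base composition: the median GC content was 39.8% at divergent summits and at one-direction summits, 38.3% at 1000 bp, 36.6% at the members' midpoints and 32.8% at the midpoints of unoccupied pairs. The part of GC content in the TATAAA and GGGCGG shares was not tested. TATATA gave the same order, with 2.27% at divergent summits, 4.79% at one-direction summits and 10.3% at unoccupied midpoints. TATAAA matches in divergent windows lay a median of 65 bp from the summit, and 20 of 65 were within 50 bp.

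**Figure D5:**
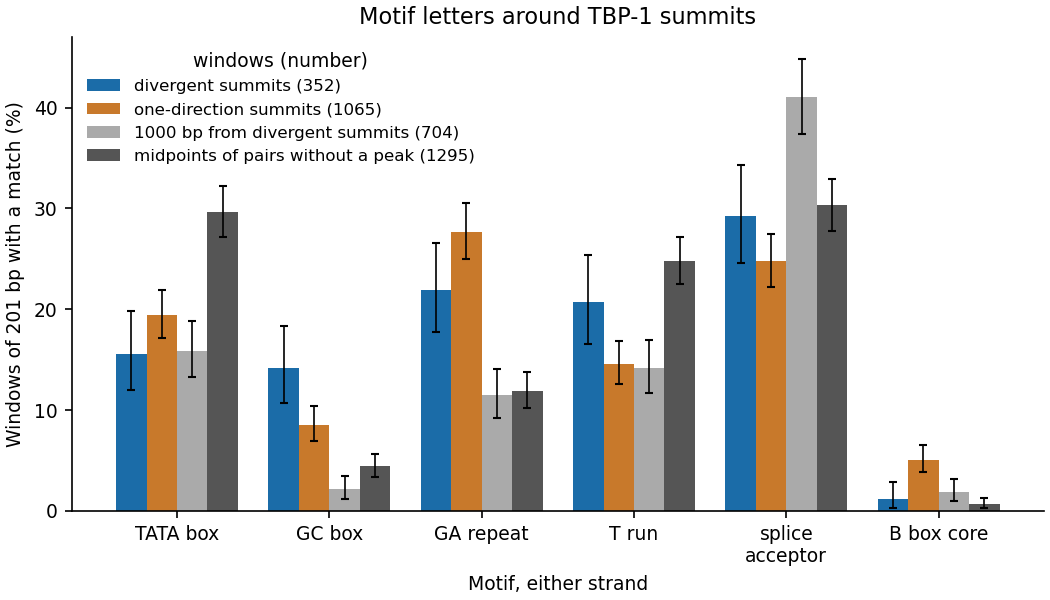
Percentage of windows of 201 bp with a match on either strand to the letters of the TATA box, GC box, GA repeat, T run, splice acceptor and B box core, with exact 95% intervals. The GC box is at 14.2% of divergent summits against 2.13% of windows 1000 bp away, and the TATA box is most frequent, at 29.7%, at midpoints of pairs without a peak.

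Read toward the gene and 20 to 60 bp upstream of the annotated end, TATAAA stood before 39 of 704 ends at divergent peaks (5.54%, interval 3.97 to 7.5%). The share was 55 of 1065 ends at one-direction peaks (5.16%) and 1723 of 25635 autosomal protein-coding ends in all (6.72%). Among the histone ends it was 3 of 11, at 60 bp before his-68, 60 bp before his-61 and 43 bp before his-41. Y17G9B.5, at the strongest divergent peak, had it at 38 bp, hsp-16.2 at 42 bp, hsp-90 at 53 bp and mdt-26 at 45 bp. The nearest ends of hsp-16.41 and his-62 had none in that range. At trans-spliced genes the annotated end lies downstream of the start, so this range can miss a TATA box there. These shares therefore cannot show how often a TATA box precedes the start itself.

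The remaining letters behaved in several ways. TTTTTTTT was in 20.7% of divergent windows and 14.6% of one-direction windows, against 14.2% at 1000 bp and 24.8% at unoccupied midpoints. TTTCAG, the letters of the worm splice acceptor, was in 29.3% of divergent windows against 24.8% of one-direction windows, and in 41.1% of the windows 1000 bp away. GGTTCGA, the core of the B box of tRNA genes, was in 4 divergent windows (1.14%) against 54 one-direction windows (5.07%); the rule keeps annotated tRNA ends within 500 bp out of both. TTCTAGAA was in 10 divergent windows (2.84%, interval 1.37 to 5.16%), 12 one-direction windows (1.13%) and 24 unoccupied midpoints (1.85%).

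The thresholds of the rule cut through a continuous range. Just inside the reach of 500 bp were cids-2/phip-1, whose farther end is 500 bp from the summit, and eif-4A3/vps-20 at 495 bp. Just outside were simr-1/C06A5.3 at rank 1266 and pak-2/C45B11.9 at rank 2659, both with the farther end at 503 bp. The weakest members were mat-1/prp-31 at rank 3862 and aagr-3/drap-1 at rank 3860. The next divergent promoters below the list were gly-7/mrpl-39 and Y73C8B.3/Y73C8B.9, at ranks 3868 and 3875 of the pooled peaks.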

How the data were processed

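Whole-animal TBP-1 ChIP-seq of 2 biological replicates was analysed from peak lists on ce11, per the labels and the deposited file descriptions. The authors deposited 30000 peaks and background regions per replicate, a pooled list of the same kind and 3862 reproducible peaks selected by IDR. The control alignment was not analysed here. Aligner, peak caller and read depth: not given in the sources used here. No interval that needs depth was therefore computed. Peaks were ranked, list by list, by the signal value that the authors deposited, whose scale is not stated. The −log10 q-value deposited with each peak was identical for all 3862 reproducible peaks and was not used further. The summit offset of each peak was used as the authors deposited it.

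Summits were compared with transcript 5' ends of Ensembl release 115 (WBcel235) and sequences taken from the RefSeq genome of the same build. Replicate values come from the replicate peak that overlaps a member by at least 1 bp with the nearest summit. A gene was paired when a head-to-head protein-coding end lay within 1000 bp. Product names come from RefSeq and were found for all 704 entries. Shares have exact 95% Clopper-Pearson intervals, and no p-value was computed, since peaks are not replicates and there is 1 group. Classification was tested on simulated data. Python 3.11.15, numpy 2.4.6, pandas 2.3.3, scipy 1.17.1 and matplotlib 3.10.9 were used. The members, the 21 symbol-based gene lists and the motifs were chosen with earlier results of these data known. Named are the pairs at the 12 strongest peaks, pairs of 1 list or symbol stem, up to 3 members of each list, the 3 shortest and longest pairs, the pair with more than 1 peak, the peaks next to each threshold, and tbp-1, unc-119 and ama-1; other names are stated to be chosen after their values were seen. A result at 1 pair that this rule names is not reported here.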

Additional observations from a re-analysis of the deposited data

How the results depend on the processing

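Of 67 alternatives, 33 left a value within the bound used for it and 34 moved it. The bound was counting error for shares and the SD between the replicates for medians. For the number of members it was a fixed ratio to the main count of 352, a wide bound. The 515 members at a reach of 1000 bp stayed within it. With a reach of 250 bp around the summit there were 150 members (15.1% of promoter peaks) with a median of 260 bp between the ends, 82 bp to the nearer end and a percentile of 49.2. At that reach 15.1% of paired and 4.27% of unpaired genes were occupied. At 1000 bp the share of divergent peaks was 29.8%, the ends were 498 bp apart, 87.4% of summits lay between them, the nearer end was at 163 bp and the percentile was 45.8. There 27.8% of paired and 9.59% of unpaired genes were occupied. The 1931 strongest peaks held 170 members (31%), with ends 414 bp apart, 95.3% of summits between them, 144 bp to the nearer end and a percentile of 32.4 among those peaks, and 10.9% of paired and 2.4% of unpaired genes were occupied. With gene-model 5' ends the distance was 389 bp and the percentile 48.4, and with head-to-head pairs only the percentile was 49.1. Leaving out a replicate gave 387 to 390 bp between the ends, 131 to 138 bp to the nearer end, a percentile of 47.2 to 47.3 and 21 to 23.1% of paired genes. Within 50 bp of the summit TATAAA was in 5.11%, GGGCGG in 9.09% and TTTCAG in 6.82% of windows. Paired genes were occupied more often than unpaired genes at both other reaches, with gene-model ends, among the 1931 strongest peaks and without either replicate. No paired analysis was possible because there is 1 group and no comparison between groups. Depth is unknown, annotated 5' ends are not measured transcription starts, and sonicated fragments limit how finely a summit is placed.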
